A study of Mus musculus with 26 samples.

Results

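Formative epiblast genes are known as genes that rise when naive pluripotent cells move towards lineage competence. The set described here has 8 genes, named by a list, among 53978 genes in the table of the Tex10 depletion experiment and 50969 in the table of the Tex10 overexpression experiment. The members are Fgf5, which encodes a secreted fibroblast growth factor, and the genes of 7 DNA-binding transcription factors, Otx2, Pou3f1, Sox3, Zic2, Foxd3, Etv4 and Sox11. All 8 were found in both tables, and all 8 passed the filter on low values in both, a mean of at least 1 over the libraries of the table. The question was how fast each gene is shut down when epiblast-like cells (EpiLCs) are turned into cells resembling primordial germ cells (PGCLCs), and whether loss or gain of Tex10 changes that, gene by gene.

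The 22 libraries used are RNA-seq libraries of cultured mouse cells of strain 129Sv/J. In the depletion experiment, with 10 libraries in 5 groups of 2, EpiLCs were untreated, and PGCLCs derived from them were collected on day 2 and day 4 with 500 nM dTAG13 or with its solvent DMSO. dTAG13 is a small molecule that links a tagged protein to an E3 ubiquitin ligase so that the protein is degraded, and the labels give no further detail of the Tex10 line. In the overexpression experiment, with 12 libraries, 1 empty-vector (EV) line and 2 Tex10 overexpression clones were each sampled once as EpiLCs and on day 2, day 4 and day 6 of PGCLC induction, all labelled untreated. The samples' labels mention no sorting of PGCLCs, and they do not say whether replicates came from separate cultures, so the spread between replicates may be partly technical. A comparison of EpiLCs with DMSO PGCLCs also differs by the solvent. The EpiLC libraries are the common starting point of both arms, so a difference between arms in the fall from EpiLC to a given day is the same quantity as the dTAG13 against DMSO difference on that day.

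In the embryo, the formative state lies between the naive epiblast and the primed epiblast that is about to gastrulate, and it is the state in which cells can answer BMP signals by becoming germ cells. FGF and Nodal signalling drive entry into it, OTX2 and POU3F1 (OCT6) direct enhancers to the formative programme, and OTX2 is known as a barrier to germ cell entry that has to go down early. FOXD3 opens and closes enhancers in this transition, ZIC2 binds enhancers in pluripotent cells, SOX3 is a close relative of SOX2, ETV4 is an ETS factor downstream of FGF receptor and ERK signalling, and SOX11 is a SOXC factor best known from neural progenitors. Several of these factors are used again in the neural ectoderm, so none marks the formative state alone.

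The members are spread over 6 chromosomes, per GENCODE on GRCm38 (mm10). Fgf5 lies on chromosome 5 at 98254184 to 98277030 (+), Otx2 on chromosome 14 at 48657677 to 48673819 (-) and Zic2 on the same chromosome at 122475435 to 122479852 (+). Pou3f1 is on chromosome 4 at 124656807 to 124660655 (+), as is Foxd3 at 99656299 to 99658622 (+). Sox3 is on chromosome X at 60891366 to 60893430 (-), Etv4 on chromosome 11 at 101769742 to 101785371 (-) and Sox11 on chromosome 12 at 27334264 to 27342574 (-). Pou3f1, Sox3, Foxd3 and Sox11 are annotated as a single exon. Otx2 overlaps the antisense gene Otx2os1 and Pou3f1 overlaps the antisense gene Gm2164. Those antisense genes were at most at 3.34 and 2.75 TMM-scaled CPM in any library, the strand setting of the counting is not given in the sources used here, and their reads cannot be told from those of the members.

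RefSeq promoter sequences (GRCm38.p6) were at hand for 4 of the 8 members, Fgf5, Otx2, Foxd3 and Sox11. The 250 bases before the RefSeq start are shown for the 3 members with 1 start each, because these genes stand for the fast, the partial and the late courses described below. They lie at chromosome 5, 98253934 to 98254183 (+) for Fgf5, chromosome 4, 99656049 to 99656298 (+) for Foxd3, and chromosome 12, 27342719 to 27342968 (-) for Sox11, and they are written 5′ to 3′ on the strand of the gene with CpG dinucleotides in capitals.
Fgf5: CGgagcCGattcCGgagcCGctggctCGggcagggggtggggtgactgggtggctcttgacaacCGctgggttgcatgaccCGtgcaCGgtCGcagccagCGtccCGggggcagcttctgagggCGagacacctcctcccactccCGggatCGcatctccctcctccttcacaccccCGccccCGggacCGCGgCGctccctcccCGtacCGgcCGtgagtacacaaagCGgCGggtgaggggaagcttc
Foxd3: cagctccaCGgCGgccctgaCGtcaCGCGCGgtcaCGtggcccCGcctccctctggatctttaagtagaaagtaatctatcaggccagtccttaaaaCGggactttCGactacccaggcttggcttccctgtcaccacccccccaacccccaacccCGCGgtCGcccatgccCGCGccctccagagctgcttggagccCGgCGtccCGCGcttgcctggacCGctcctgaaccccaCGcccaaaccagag
Sox11: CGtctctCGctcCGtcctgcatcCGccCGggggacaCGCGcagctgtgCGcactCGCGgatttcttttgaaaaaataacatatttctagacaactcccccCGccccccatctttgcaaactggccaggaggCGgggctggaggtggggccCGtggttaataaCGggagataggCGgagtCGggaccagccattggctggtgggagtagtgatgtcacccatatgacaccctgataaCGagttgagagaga
All 3 windows were rich in CpG, with 24 CpGs and 70.8% GC for Fgf5, 21 and 65.6% for Foxd3, and 17 and 58.0% for Sox11. The median of all 32851 RefSeq windows of the same length was 6 CpGs and 52.4% GC. The 4 starts of Otx2 had 6 to 14 CpGs. On both strands, 7 strings were searched, namely the core promoter box TATAAA, the OTX string TAATCC, the SOX string ACAAAG, the ZIC string CAGCAGG, the forkhead string GTAAACA, the ETS string CCGGAAG and the POU octamer ATGCAAAT. The Fgf5 window held 1 match, ACAAAG at 27 to 22 bases before the start on the strand of the gene, a string found in 16.5% of all windows. Otx2 held TATAAA at 192 to 187 bases before 1 of its starts and TAATCC on the opposite strand at 211 to 206 bases before another, strings found in 12.4% and 6.25% of all windows. No other match to these letters lies in the windows of the 4 genes, and a match of letters is not evidence of binding.

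Levels are given as TMM-scaled CPM, that is, counts per unit of a library size scaled by the trimmed mean of M values. Libraries held 5055362 to 8564563 reads in the depletion table and 5227287 to 7484600 in the overexpression table, so that 1 read was worth 0.0996 to 0.187 units and the limit of 3 reads lay at 0.299 to 0.56. Unless another scale or tool, or the authors' deposited table, is named, a log2 fold change was computed from log2(value + 1), so changes of weakly expressed genes are understated, and a gene was called at a limma adjusted p under 0.05 over all genes tested (16605 and 15255). Tex10 mRNA was higher in 8 of 8 libraries of the overexpression clones (log2 fold change 1.47). Under dTAG13 it differed from DMSO by -0.14 on day 2, which was not called, and by -0.51 on day 4. The degron acts on the protein, which was not measured here. As a check of the PGCLC label, the summed level of 8 germ cell markers was 70.8 to 73.1 in EpiLCs and 254 to 269 on day 2 in DMSO, with Tfap2c at 2.28 to 4.99 and then at 90.9 to 104. In bulk RNA, fewer cells expressing a gene and less of its RNA per cell cannot be told apart.

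In control cells, 7 of the 8 formative genes fell between EpiLCs and day 2 in DMSO, but by very different amounts. Fgf5 was nearly gone on day 2, Pou3f1 and Sox3 kept 4.71% and 7.64% of their starting level, Otx2 kept 10.7%, Zic2 and Foxd3 kept 26.8% and 28.6%, Sox11 kept 42.3%, and Etv4 was not called. Over all genes tested, 26.2% were called in this comparison and 14.7% were called lower. The members' median log2 fold change was -2.53, against -0.026 for all genes. The members were listed as genes of the EpiLC state, so that they fell follows in part from their choice, and the sizes of the falls are given as measurements.

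The fastest course was that of Fgf5, the classical marker of the formative epiblast. Its level was 132 and 155 in the EpiLC libraries and 1.13 and 1.36 on day 2 in DMSO, from 9 and 10 reads. The groups are far apart, and the mean on day 2 was 0.868% ± 0.111 (SD, n = 2) of the EpiLC mean, a log2 change of -6.0 (standard error 0.332, limma adjusted p = 1.31e-11). On day 4 the DMSO libraries held 2 reads and 1 read of Fgf5, both under the limit of 3 reads. Pooled, that is 0.108% of the EpiLC level, with an exact Poisson 95% interval of 0.0222% to 0.315% that covers counting error only. The step from day 2 to day 4 was -0.96 and was not called (adjusted p = 0.105), whereas with a pseudocount of 0.1 it was -2.42 (limma adjusted p = 0.0227), and edgeR on the recovered reads gave -2.91 (adjusted p = 0.0241).

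Pou3f1, the POU-domain factor OCT6, stood at 249 and 283 in EpiLCs, at 8.93 and 16.1 on day 2 and at 2.36 and 1.39 on day 4 in DMSO. Every day 2 library was below every EpiLC library, and every day 4 library below every day 2 library. It kept 4.71% ± 1.92 of its EpiLC level on day 2 and 0.706% ± 0.257 on day 4 (SD, n = 2). Both steps were called, at -4.35 (standard error 0.283, limma adjusted p = 2.13e-10) and -2.2 (standard error 0.283, limma adjusted p = 3.04e-05).

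Sox3, the SOXB1 factor on chromosome X, was at 25.5 and 31.7 in EpiLCs, at 1.38 and 2.99 on day 2, and at 0 and 0.498 on day 4 in DMSO. The day 2 share was 7.64% ± 3.96 (SD, n = 2), with 4.84% and 10.4% in the 2 libraries, and the fall was -3.25 (standard error 0.343, limma adjusted p = 2.61e-07). The further step to day 4 was -1.33 (limma adjusted p = 0.0216). It rests on few reads, 11 and 22 on day 2 against 0 and 5 on day 4, and was not called without day 2 DMSO replicate 2 (-0.96, adjusted p = 0.279) or without day 4 DMSO replicate 1 (-1.04, adjusted p = 0.139).

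Otx2, Zic2 and Foxd3 fell by day 2 and then stayed where they were. Otx2 went from 221 and 225 in EpiLCs to 27.0 and 20.9 on day 2 and 26.2 and 30.7 on day 4. Its share was 10.7% ± 1.95 and then 12.7% ± 1.41 (SD, n = 2), and the fall to day 2 was -3.18 (standard error 0.144, limma adjusted p = 5.37e-13). Zic2 went from 175 and 186 to 45.0 and 51.7 and then to 49.7 and 45.4. It kept 26.8% ± 2.62 on day 2 and 26.4% ± 1.69 on day 4, a fall of -1.88 (standard error 0.132, limma adjusted p = 6.57e-10) followed by a plateau. Foxd3 went from 126 and 137 to 38.5 and 36.9 and then to 40.9 and 41.0. It kept 28.6% ± 0.844 and 31.1% ± 0.0565, with a first step of -1.78 (standard error 0.138, limma adjusted p = 3.36e-09). For these 3 genes the step from day 2 to day 4 was 0.24, -0.02 and 0.12, with 95% intervals of -0.06 to 0.54, -0.3 to 0.25 and -0.17 to 0.41.

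Sox11 was shut down late. It was at 82.1 and 87.7 in EpiLCs, at 32.7 and 39.1 on day 2 and at 2.9 and 4.38 on day 4 in DMSO, so the groups did not overlap at any step. Its share was 42.3% ± 5.31 on day 2 and 4.29% ± 1.23 on day 4 (SD, n = 2). The step from day 2 to day 4, -3.0 (standard error 0.186, limma adjusted p = 3.5e-09), was larger than the first, -1.22 (standard error 0.186, limma adjusted p = 3.36e-05). On the log2(value + 1) scale 29% of its fall to day 4 had taken place by day 2, against 66.4% for Pou3f1. No such share is given for Fgf5 and Sox3, whose day 4 libraries held 0 to 5 reads.

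Etv4, the ERK-responsive ETS factor, was not shut down. It was at 40.3 and 41.5 in EpiLCs, at 34.2 and 31.5 on day 2 and at 46.1 and 61.2 on day 4 in DMSO. The day 2 libraries were both lower than the EpiLC libraries, at 80.3% ± 4.71 (SD, n = 2) of the EpiLC mean, but the difference of -0.31 (standard error 0.147, limma adjusted p = 0.131) was not called. From day 2 to day 4 it rose by 0.68 (standard error 0.147, limma adjusted p = 0.00656). The rise was not called without day 4 DMSO replicate 2, the higher of the pair (0.48, adjusted p = 0.103), or without day 2 DMSO replicate 2 (0.62, adjusted p = 0.0846).

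From day 2 to day 4 in DMSO, 4 of the 8 members were called, with Pou3f1, Sox3 and Sox11 lower and Etv4 higher, and 5.52% of all genes were called. Ordered by the share left on day 2, from least to most, the members were Fgf5, Pou3f1, Sox3, Otx2, Zic2, Foxd3, Sox11 and Etv4. The libraries of Pou3f1 and Sox3 overlapped in this share (3.36% and 6.07% against 4.84% and 10.4%), and so did those of Sox3 and Otx2 (9.37% and 12.1%) and those of Zic2 and Foxd3 (25% and 28.7% against 28% and 29.2%). The other neighbours in that order did not overlap.

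**Figure D1:**
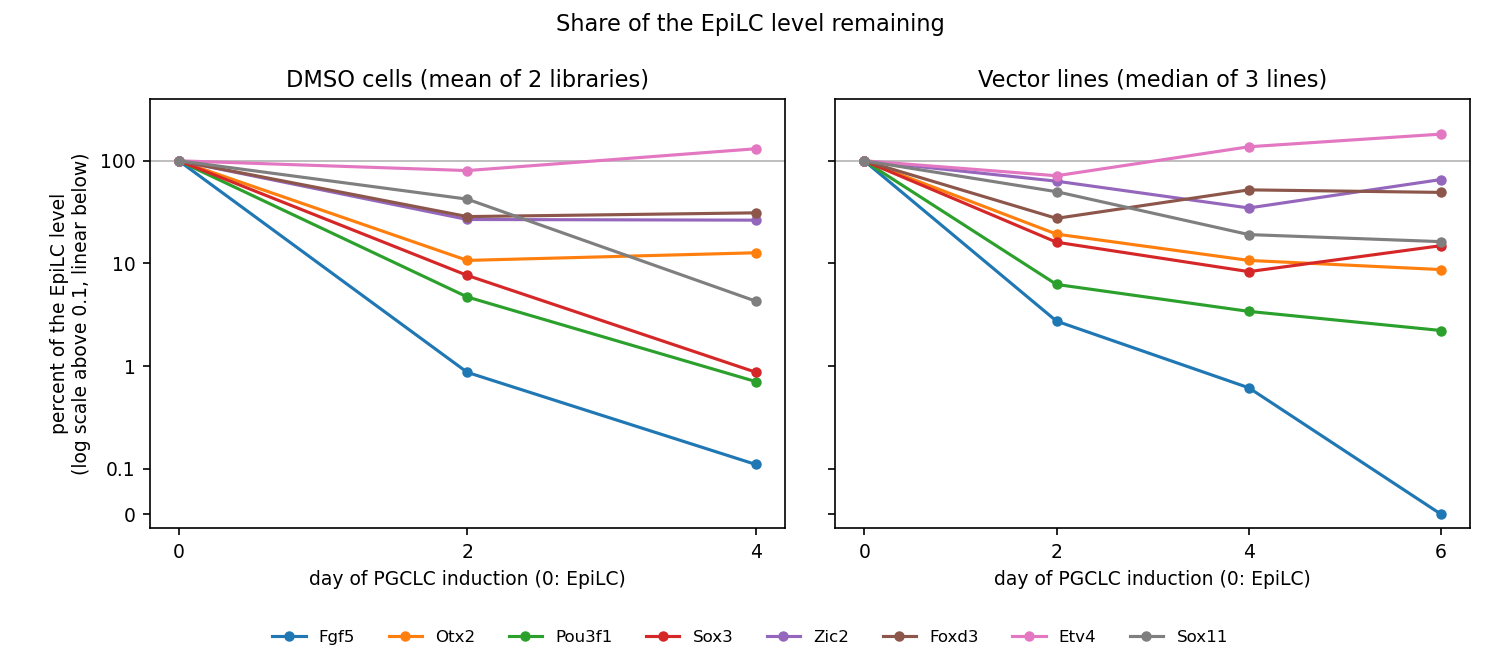
Percent of the EpiLC level (y, log scale above 0.1 and linear below) against the day of PGCLC induction (x) for the 8 genes, as means of 2 DMSO libraries (left) and medians of the 3 vector lines, each against its own EpiLC library (right). Fgf5 is lowest on every day in both panels, Etv4 ends above 100%, and Sox11 passes from 42.3% to 4.29% between day 2 and day 4 in DMSO; the Fgf5 points on day 4 (DMSO) and day 6 rest on 0 to 2 reads a library.

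The 3 vector lines, normalised apart from the depletion libraries, gave a separate course of 6 days, in which the EV line and both clones are pooled. All 8 members were called lower between EpiLCs and day 2, where 46.3% of all genes were called and 22.1% were called lower. On day 2 the share of the EpiLC level of the same line was 0.829% to 3.29% for Fgf5, 6% to 7.18% for Pou3f1, 8.06% to 17% for Sox3 and 16.7% to 20.6% for Otx2. It was 18% to 29.5% for Foxd3, 41.9% to 69.5% for Sox11, 57.3% to 74.3% for Zic2 and 52% to 106% for Etv4. Fgf5, Pou3f1 and Sox3 were again the 3 members with the lowest median shares, in the same order as in DMSO. Zic2 kept a median of 63.3%, where DMSO cells kept 26.8%, a contrast between tables that was not tested.

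Between day 2 and day 4 of the vector lines 7 members were called, against 23.0% of all genes. Fgf5 (-1.3), Otx2 (-0.75), Pou3f1 (-0.85), Zic2 (-0.7) and Sox11 (-1.25) fell further, while Foxd3 (0.93) and Etv4 (0.84) rose, and Sox3 (-0.52, limma adjusted p = 0.109) was not called. Foxd3 stood at 40.2, 26.2 and 37.4 in EV, clone 1 and clone 2 on day 2 and at 51, 79.4 and 70.7 on day 4. Etv4 stood at 55.7, 25.4 and 32.7 in the same lines on day 2 and at 61.5, 72.5 and 62.7 on day 4. Both rises stayed called in all 16 alternative settings, with values of 0.62 to 1.23 for Foxd3 and 0.53 to 1.2 for Etv4. The fall of Fgf5 was not called without overexpression clone 1 (-0.8, adjusted p = 0.143) or with DESeq2 (-2.19, adjusted p = 0.0768), and that of Otx2 not without the variance trend (adjusted p = 0.0624). Sox3 was called lower without the EV line (-0.67, adjusted p = 0.0351) and without its day 4 library (-0.8, adjusted p = 0.0183). From day 4 to day 6, 3 members were called against 6.88% of all genes. Zic2 rose by 0.86 (limma adjusted p = 1.08e-06), from 104, 70.2 and 71.7 to 184, 135 and 128, and so returned to 62% to 92.4% of its EpiLC level.

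In the same step, Pou3f1 (-0.62) and Sox11 (-0.43) fell, at limma adjusted p = 0.0112 and 0.0246. Neither of those falls was called without the EV line (-0.31 and -0.26), without overexpression clone 1 (-0.74, adjusted p = 0.0691, and -0.44, adjusted p = 0.202), or without the EV library of day 4 or of day 6 (-0.47 and -0.35 for Pou3f1, -0.27 and -0.35 for Sox11). The fall of Sox11 was also lost without the clone 1 library of day 4 (-0.48, adjusted p = 0.0528) or of day 6 (-0.39, adjusted p = 0.147). Sox3 (0.65, limma adjusted p = 0.0938) was not called in this step. It went from 5.21 to 4.67 in the EV line and from 2.84 to 7.97 and from 3.92 to 7.86 in the clones. Without the EV line it was called higher (1.04, adjusted p = 0.0025), as it was without the EV library of day 4 (0.93, adjusted p = 0.0212) or of day 6 (0.89, adjusted p = 0.0403). Without the EV line Otx2 (-0.48, adjusted p = 0.00947) and Etv4 (0.39, adjusted p = 0.0231) were called too, and Otx2 also without the EV library of day 6 (-0.6, adjusted p = 0.038). With a pseudocount of 0.1 Fgf5 was called lower (-2.19, adjusted p = 0.014).

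The early fall of Etv4 in the vector lines (-0.43, limma adjusted p = 0.0166) was lost in 9 of 16 settings. Among them were DESeq2 (-0.42, adjusted p = 0.17), no filter (limma adjusted p = 0.102), no variance trend (limma adjusted p = 0.141) and no line term (limma adjusted p = 0.0581). The call was lost without clone 1 (-0.19, adjusted p = 0.385) or clone 2 (-0.42, adjusted p = 0.115). It was also lost without the clone 1 library of day 2 (-0.16, adjusted p = 0.371), the clone 2 library of day 2 (-0.39, adjusted p = 0.0773) or the clone 1 library of EpiLCs (-0.38, adjusted p = 0.0792). Without the EV line the fall was larger (-0.69, adjusted p = 6.84e-07), and without the EV library of day 2 it was -0.74. Etv4 went from 52.4 to 55.7 between EpiLC and day 2 in the EV line, and from 48.9 to 25.4 and from 45.7 to 32.7 in the clones. By day 6 Etv4 stood at 87.2, 89 and 87.8, which is 166% to 192% of its EpiLC level.

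With dTAG13 the formative genes did not move as one group. Pou3f1 remained higher than in DMSO on both days, Foxd3 and Zic2 were lower on both days, and Fgf5 and Otx2 were not called on either. On day 2, 4 of the 8 members were called, 1 higher and 3 lower, where 33.6% of all genes were called. On day 4, 5 members were called, 2 higher and 3 lower, where 41.8% of all genes were called. With so large a share of genes called, these counts do not set the members apart from other genes. The members' median log2 fold change was -0.11 on day 2 and -0.05 on day 4, against -0.09 and -0.133 for all genes, and after median-ratio scaling the medians of all genes were -0.01 and -0.03.

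**Figure D2:**
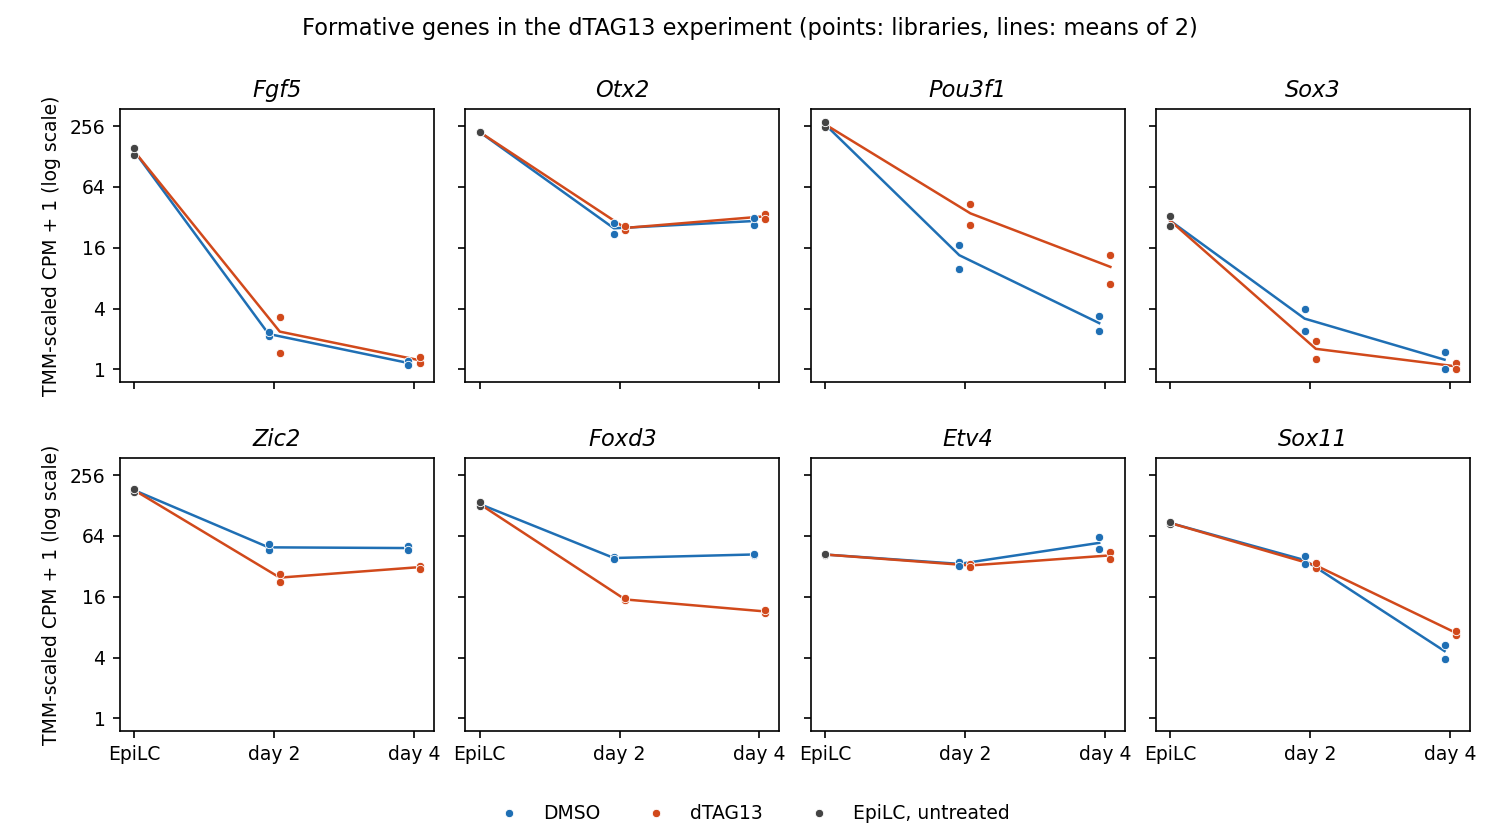
Level (TMM-scaled CPM + 1, y, log scale) of each formative gene in the 10 libraries of the depletion experiment by stage (x), with points for libraries and lines through the means of 2. The dTAG13 libraries lie above the DMSO libraries for Pou3f1 and below them for Foxd3 and Zic2 on both days, and the arms overlap for Fgf5 and Otx2.

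Pou3f1 was at 26.1 and 42 on day 2 in dTAG13 against 8.93 and 16.1 in DMSO, and at 6.01 and 12.7 against 2.36 and 1.39 on day 4. Each dTAG13 library was above each DMSO library of its day. The share of the EpiLC level left was 12.8% ± 4.22 against 4.71% ± 1.92 on day 2, and 3.52% ± 1.78 against 0.706% ± 0.257 on day 4 (SD, n = 2 each). On the log2 scale Pou3f1 was higher by 1.39 on day 2 (limma adjusted p = 0.000654) and by 1.79 on day 4 (limma adjusted p = 2.73e-05), with a standard error of 0.283 each and 2 of 2 libraries higher on each day. Pou3f1 fell under dTAG13 too, by 2.96 to day 2 and by a further 1.8 to day 4. Its shutdown was thus less complete at each day sampled and was not absent. In the authors' deposited table the log2 fold change was 1.44 (FDR 0.0467) on day 2 and 2.31 (FDR 0.000447) on day 4.

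Foxd3 moved the other way. It was at 13.7 and 14.4 on day 2 in dTAG13 against 38.5 and 36.9 in DMSO, and at 10.1 and 10.8 against 40.9 and 41.0 on day 4. The arms were apart on both days, and where DMSO cells held a plateau of 28.6% and 31.1% of the EpiLC level, dTAG13 cells held 10.7% ± 0.414 and 7.94% ± 0.369 (SD, n = 2). On the log2 scale these differences were -1.36 (limma adjusted p = 1.46e-07) and -1.87 (limma adjusted p = 5.75e-10), with a standard error of 0.138 each, and 2 of 2 libraries were lower on each day. Zic2 was at 26 and 21.5 against 45.0 and 51.7 on day 2, and at 31.5 and 29.4 against 49.7 and 45.4 on day 4. It kept 13.2% ± 1.73 and 16.9% ± 0.836, against 26.8% and 26.4% in DMSO. The difference was -1.0 on day 2 (standard error 0.132, limma adjusted p = 5.02e-06) and -0.63 on day 4 (standard error 0.132, limma adjusted p = 0.000591), and again 2 of 2 libraries were lower.

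The calls of Pou3f1, Foxd3 and Zic2 held on both days in all 12 alternative settings, which include leaving out each library of the comparison. The lowest and highest values over those settings were 0.99 and 1.78 on day 2 and 1.31 and 2.45 on day 4 for Pou3f1. For Foxd3 they were -1.42 and -1.28, then -1.96 and -1.76, and for Zic2 -1.13 and -0.87, then -0.69 and -0.51. By chi-square per gene the day 4 DMSO pair differed most among the same-group pairs, at 13.6 against 3.34 to 4.81 in the other groups. By Pearson correlation the day 2 dTAG13 pair was the least alike (0.983, against 0.985 for day 4 DMSO). None of the day 4 calls of Pou3f1, Foxd3 and Zic2 was lost without either day 4 DMSO library. Genes detected numbered 26078 and 26842 in day 2 dTAG13 against 23999 and 23860 in day 2 DMSO. On day 4 they numbered 28809 and 27161 in dTAG13 against 23893 and 28687 in DMSO. The part of this in the results for the formative genes was not tested.

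**Figure D3:**
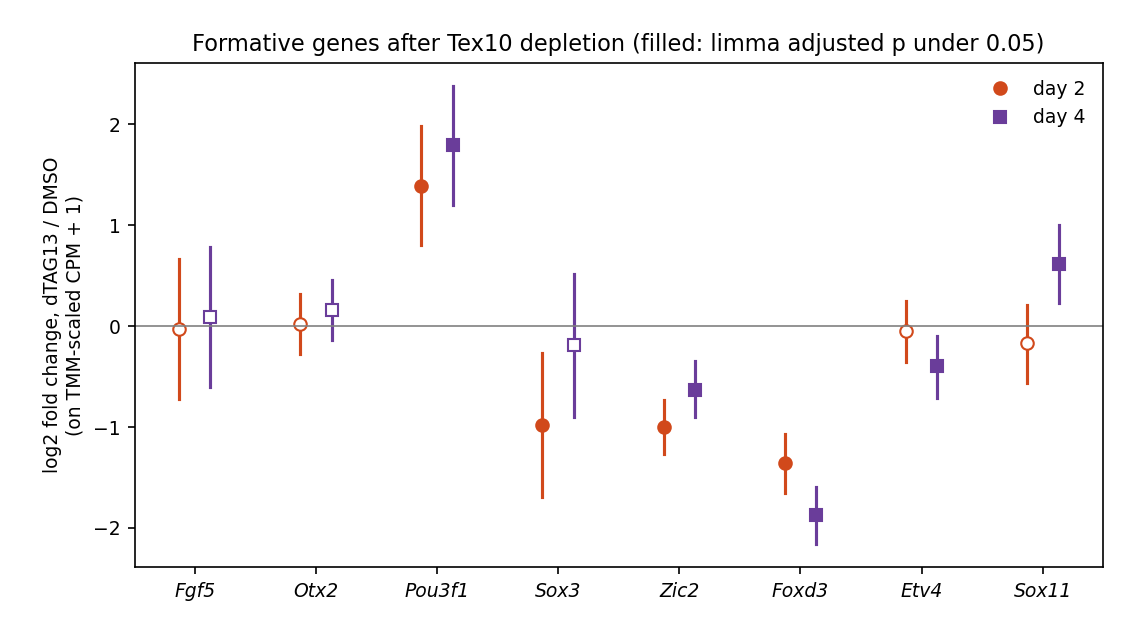
Log2 fold change of dTAG13 against DMSO (y, on TMM-scaled CPM + 1) for each formative gene (x) on day 2 (circles) and day 4 (squares), with 95% confidence intervals from limma and filled symbols for limma adjusted p under 0.05. Pou3f1 lies above 0 on both days, Foxd3 and Zic2 below 0 on both days, and the intervals of Fgf5 and Otx2 include 0.

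Fgf5 was at 0.466 and 2.27 on day 2 in dTAG13, either side of the 1.13 and 1.36 in DMSO. The difference was -0.03 with a 95% interval of -0.72 to 0.66 (limma adjusted p = 0.953), on 3 and 17 reads, so a moderate difference could not have been detected. On day 4 both arms held 3 reads in all. Otx2 was at 23.2 and 25.1 against 27.0 and 20.9 on day 2 and at 33.7 and 29.9 against 26.2 and 30.7 on day 4. Its differences were 0.02 (95% interval -0.28 to 0.32) and 0.16 (95% interval -0.14 to 0.46). Both intervals lie within 0.5 of 0 on the log2(value + 1) scale, at levels many times the limit of 3 reads. In dTAG13 as in DMSO, Otx2 fell by day 2 (-3.16, limma adjusted p = 1.81e-13).

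Sox3 was lower under dTAG13 on day 2, at 0.932 and 0.268 against 1.38 and 2.99, which is -0.98 (standard error 0.343, limma adjusted p = 0.0317). That call rests on 6 and 2 reads against 11 and 22, and it was lost in 7 of 12 settings. They include leaving out day 2 DMSO replicate 2 (-0.61, adjusted p = 0.312) and leaving out day 2 dTAG13 replicate 2 (-0.67, adjusted p = 0.238). The authors' deposited table gives a log2 fold change of -1.87 with an FDR of 0.0606. On day 4 Sox3 was at 0.147 and 0 against 0 and 0.498, and the difference of -0.19 was not called (limma adjusted p = 0.687). Sox3 is X-linked, and the libraries differed in X-linked expression. The 565 tested genes of chromosome X had a median log2 fold change of -0.22 on day 2 against -0.08 for autosomal genes. On day 4 these medians were -0.17 and -0.13. Xist was at 129 and 138 in EpiLCs, at 250 and 253 in day 2 dTAG13 and at 5.41 and 5.02 in day 2 DMSO. On day 4 Xist was at 94.2 and 115 in dTAG13 against 1.72 and 2.99 in DMSO. The part of this in the Sox3 result was not tested.

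Sox11 was at 29.7 and 33.7 against 32.7 and 39.1 on day 2, with overlapping arms, and its difference of -0.17 (95% interval -0.56 to 0.21) was not called. On day 4 it was at 5.72 and 6.36 against 2.9 and 4.38, higher by 0.62 (standard error 0.186, limma adjusted p = 0.0104). The shares left were 7.11% ± 0.53 and 4.29% ± 1.23 (SD, n = 2). The call was lost without day 4 DMSO replicate 1 (0.39, adjusted p = 0.127) and without day 4 dTAG13 replicate 2 (0.55, adjusted p = 0.0667), and in the authors' deposited table the log2 fold change was 0.72 with an FDR of 0.175. Etv4 was at 32.8 and 30.5 against 34.2 and 31.5 on day 2 and at 43.3 and 36.9 against 46.1 and 61.2 on day 4. The day 4 difference was -0.4 (standard error 0.147, limma adjusted p = 0.0327). It was lost in 8 of 12 settings, among them median-ratio scaling (-0.29, adjusted p = 0.127), leaving out day 4 DMSO replicate 2 (-0.2, adjusted p = 0.345) and leaving out day 4 dTAG13 replicate 2 (-0.29, adjusted p = 0.238).

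Taking each arm by itself, all 8 members were called lower from EpiLC to day 2 under dTAG13, where 49.9% of all genes were called and 29.7% were called lower. The Etv4 call in that step (-0.36, limma adjusted p = 0.0465) was lost in 10 of 12 settings. Among them were median-ratio scaling (-0.26, limma adjusted p = 0.148), edgeR (-0.25, adjusted p = 0.196) and DESeq2 (-0.25, adjusted p = 0.289). It was also lost without any 1 of the 4 libraries compared (-0.41 to -0.31). From day 2 to day 4 under dTAG13 only Pou3f1 (-1.8) and Sox11 (-2.21) were called, against 7.65% of all genes, and Foxd3 changed by -0.39 (limma adjusted p = 0.0891). Fgf5 changed by -0.83 in that step (limma adjusted p = 0.138). It was not called in 11 of 12 settings, over which its change was -2.65 to -0.25. The setting that called it lower left out day 2 dTAG13 replicate 1, which held 3 reads (-1.41, limma adjusted p = 0.0232). The difference between the dTAG13 effects of the days was tested as an interaction, in which no member was called by limma, with 1.25% of all genes called. At an unadjusted p under 0.05 there were 2013 genes, among them Sox11 (0.79, adjusted p = 0.173) and Foxd3 (-0.51, adjusted p = 0.266). Sox11 was called in that test without day 4 DMSO replicate 2 (1.02, adjusted p = 0.0337).

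Marker lists of other cell states moved with dTAG13 as well, and their counts stand beside 33.6% of all genes called on day 2 and 41.8% on day 4. The 12 neural ectoderm markers had a summed level of 134 to 136 in day 2 DMSO and 256 to 271 in day 2 dTAG13. Nes, the intermediate filament gene nestin, was at 49.4 to 50.9 in DMSO and made up most of the sum in dTAG13, at 212 to 225. Of the 6 neural markers tested, 1 was called higher and 4 lower on each day, with Tubb3 at -1.15 and -2.06, and Dcx and Hes5 were under the limit of 3 reads in every library of both arms on day 2. The 10 mesoderm and endoderm markers had summed levels of 67.4 to 76.3 in EpiLCs, 13.8 to 16.8 in day 2 DMSO and 36.7 to 46.2 in day 2 dTAG13. Of the 4 tested, Hand1 and Gata6 were called higher on both days (2.06 and 1.29 on day 2, 2.6 and 2.46 on day 4), and none was called lower. Foxa2 was under the limit in both arms on day 2. The 8 germ cell markers were at 254 to 269 and 219 to 226 on day 2, with Prdm14 (-1.89) and Kit (-1.82) lower and Tfap2c (0.69) higher. Of 8 naive pluripotency markers 7 were called lower on each day, led by Nanog (-1.51 and -1.69), and Pou5f1 and Sox2 were lower too, at -0.73 and -0.48 on day 2. The 6 fibroblast and feeder markers summed to 6.54 to 7.74 in DMSO and 7.15 to 10.8 in dTAG13 on day 2, and to 7.84 to 9.66 and 6.16 to 13 on day 4. Of the 4 tested, the collagen gene Col1a1 was called higher on both days (1.04 and 1.39). The part of these shifts in the results for the formative genes was not tested.

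In the overexpression experiment Zic2 and Sox11 were the 2 members called over all stages. Both were lower in the clones, where 8.76% of all genes were called. Zic2 was at 199 in EV and 206 and 207 in the clones as EpiLCs, at 148 against 130 and 118 on day 2, at 104 against 70.2 and 71.7 on day 4, and at 184 against 135 and 128 on day 6. Sox11 was at 199 against 203 and 205 as EpiLCs, at 138 against 102 and 85.7 on day 2, at 61.3 against 38.8 and 36.2 on day 4, and at 35.7 against 29.1 and 33.3 on day 6. For both genes the clones were lower in 6 of 6 PGCLC libraries and in neither EpiLC library. With all stages in 1 fit the log2 difference was -0.3 for Zic2 (standard error 0.0704, limma adjusted p = 0.00549) and -0.35 for Sox11 (standard error 0.0863, limma adjusted p = 0.00844).

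**Figure D4:**
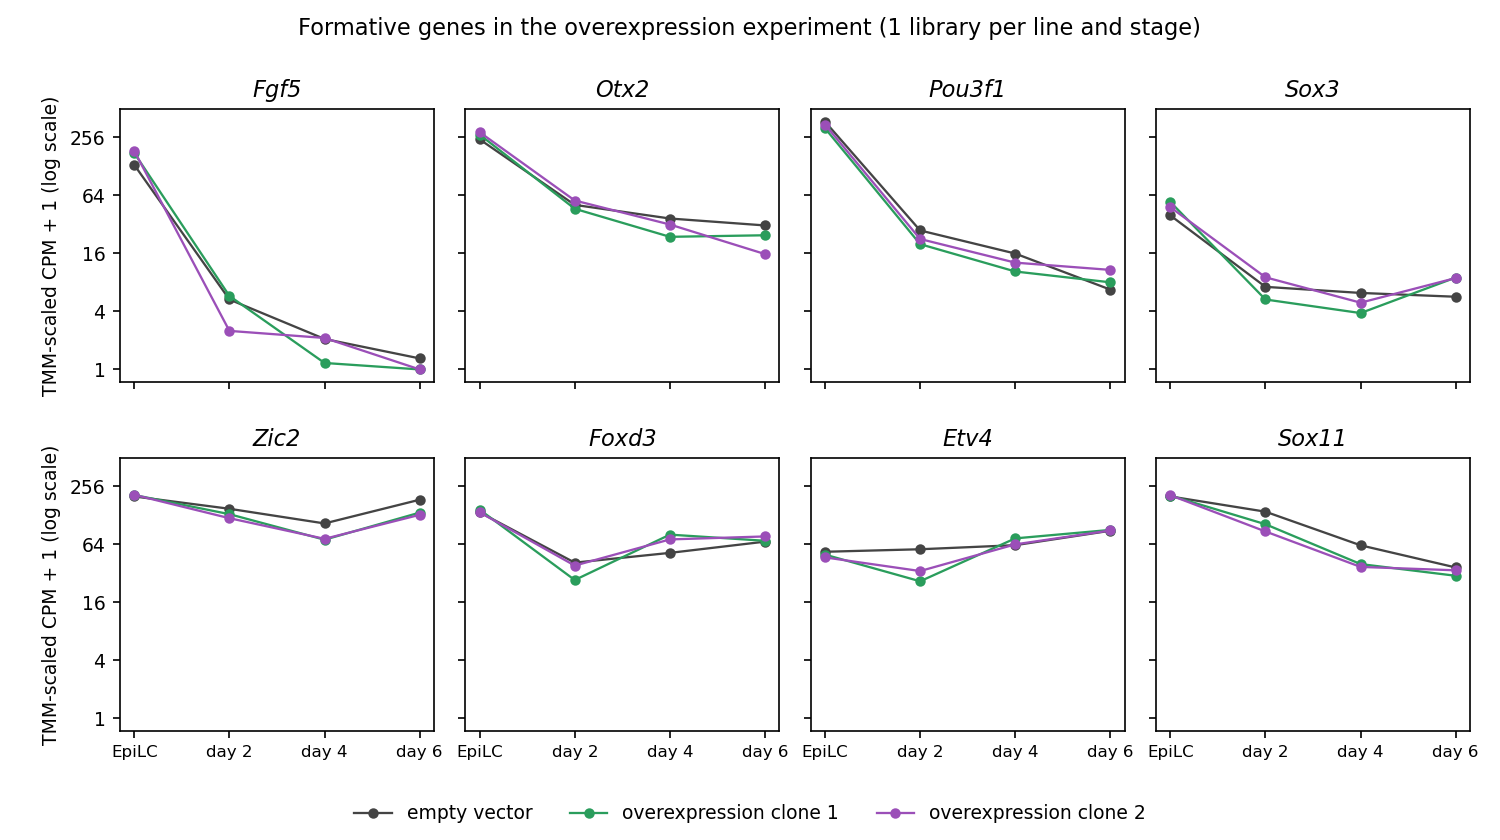
Level (TMM-scaled CPM + 1, y, log scale) of each formative gene by stage (x) in the EV line and the 2 Tex10 overexpression clones, with 1 library per line and stage. The clones lie below the EV line for Zic2 and Sox11 on day 2, day 4 and day 6, and near it as EpiLCs.

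Those 2 calls were fragile, each being lost in 6 of 12 settings. Without clone 1 the values were -0.33 (adjusted p = 0.0574) for Zic2 and -0.37 (adjusted p = 0.0864) for Sox11, and without clone 2 they were -0.28 (adjusted p = 0.098) and -0.34 (adjusted p = 0.069). Leaving out day 4 gave -0.22 (adjusted p = 0.0912) for Zic2 and -0.24 (adjusted p = 0.133) for Sox11, leaving out day 6 gave -0.25 (adjusted p = 0.0949) for Zic2, and leaving out day 2 gave -0.28 (adjusted p = 0.101) for Sox11. With 1 EV line the stages take the place of replicates and nothing measures how much control lines vary, so a difference between this EV line and others cannot be told apart from an effect of Tex10. Whether the clones' fall from EpiLC to PGCLC differed from that of the EV line was tested as an interaction. No member was called by limma, against 0.590% of all genes, and 1618 genes had an unadjusted p under 0.05. Zic2 had the smallest adjusted p of the members (-0.48, 0.0924) and Sox11 the next (-0.52, 0.187). Zic2 was called without day 2 (-0.56, adjusted p = 0.00827) and Sox11 without day 6 (-0.66, adjusted p = 0.0429).

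Marker lists of other cell states differed between the clones and the EV line too, where 8.76% of all genes were called over all stages and 0.590% in the interaction of clone and PGCLC stage. Of 7 neural ectoderm markers tested, 3 were called lower over all stages, Nes (-0.43), Elavl3 (-0.49) and Sox1 (-0.67). The summed level of the 12 neural markers was 337 in EV and 259 to 267 in the clones on day 2, 277 against 225 to 250 on day 4 and 298 against 322 to 340 on day 6, with Neurog2 under the limit of 3 reads in every library. Of 5 mesoderm and endoderm markers tested Hand1 was called lower (-0.88), and the 10 markers summed to 20.3 against 11.4 to 16.2 on day 2, 58.9 against 32.9 to 38.8 on day 4 and 37.6 against 31.9 to 33.2 on day 6. Of 8 naive pluripotency markers 2 were called higher and 1 lower over all stages, and 4 were called higher in the interaction of clone and PGCLC stage, led by Nr5a2 (1.03) and Nanog (0.71). Of 8 germ cell markers Dnd1 was called higher over all stages (0.46), and Tfap2c lower in the interaction (-1.23), where its level as EpiLCs was 0.751 in EV and 2.2 to 2.53 in the clones. The germ cell markers summed to 319 against 377 to 384 on day 2, 347 against 275 to 286 on day 4 and 286 against 296 to 310 on day 6. None of the 3 fibroblast markers and 4 core pluripotency markers tested was called by limma in either comparison. The part of these differences in the results for Zic2 and Sox11 was not tested.

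None of the other 6 members was called over all stages, and their differences from EV varied with the stage. Pou3f1 was lower in both clones as EpiLCs (316 and 345 against 370), on day 2 (18.9 and 21.5 against 26.6) and on day 4 (9.36 and 11.8 against 14.9), and higher on day 6 (7 and 9.76 against 5.72). Without day 6 it was called lower (-0.34, limma adjusted p = 0.047). Otx2 was lower in both clones on day 4 (22.7 and 30.8 against 35.7) and on day 6 (23.6 and 14.7 against 30.1), and higher as EpiLCs. Etv4 was at 55.7 in EV and 25.4 and 32.7 in the clones on day 2, while on day 6 the 3 lines were at 87.2, 89 and 87.8. In the authors' deposited table, which set 1 EV library against the clones of the stage, Etv4 had a log2 fold change of -0.94 on day 2 (FDR 4.19e-07) and of 0.02 on day 6 (FDR 1). The same table has Sox11 at -0.56 on day 2 (FDR 0.000246) and -0.71 on day 4 (FDR 0.000121), Zic2 at -0.55 on day 4 (FDR 0.000365) and -0.48 on day 6 (FDR 0.00131), and Foxd3 at 0.56 on day 4 (FDR 0.0337). There Sox11 was at -0.19 on day 6 and Zic2 at -0.25 on day 2 (FDR 0.451). As EpiLCs Sox11 was at 0.03 and Zic2 at 0.05, and none of these had an FDR under 0.05. Foxd3 stood at 51 in EV and 79.4 and 70.7 in the clones on day 4, and at 67 against 68.4 and 76 on day 6. Fgf5 was higher in both clones as EpiLCs, at 174 and 183 against 131, and on day 2 the clones lay on both sides of EV, at 4.78 and 1.51 against 4.31. Its all-stage difference was -0.2 (95% interval -0.64 to 0.23), and those of Otx2, Pou3f1 and Sox3 were -0.22 (-0.45 to 0.02), -0.14 (-0.38 to 0.11) and 0.12 (-0.24 to 0.47). Zic2 was thus called lower on both days under dTAG13 and also lower in the clones, in tables that were not tested against each other.

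A list of 12 other genes of the formative and primed state also held members that moved in either direction under dTAG13. From EpiLC to day 2 in DMSO 11 of them were called lower and none higher, where 26.2% of all genes were called and 14.7% were called lower. Their median was -1.2 against -0.026 for all genes, led by Sall2 (-2.89) and the DNA methyltransferase gene Dnmt3a (-2.62). As with the members, that these genes fell follows in part from their choice. Under dTAG13, 2 were called higher and 7 lower on day 2, where 33.6% of all genes were called, and 4 higher and 6 lower on day 4, where 41.8% were. The epithelial genes Krt18 (2.13 and 2.88) and Cldn6 (1.0 and 1.35) were the highest, and Tcf15 (-2.02 and -1.93), a bHLH factor of the formative epiblast, and Fgf15 (-1.47 and -1.95) the lowest. The list's median was -0.37 on day 2 and -0.22 on day 4, against -0.09 and -0.133 for all genes. In the clones 2 of 12 were called over all stages, Lin28b (-0.37) and Dnmt3a (-0.29), both lower, where 8.76% of all genes were called.

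Of 14 genes of FGF and ERK signalling, 9 were called lower and 1 higher from EpiLC to day 2 in DMSO. Of all genes, 14.7% were called lower there and 26.2% in either direction. The ligand gene Fgf8 (-1.69) and the ERK phosphatase gene Dusp4 (-3.17) fell, and the receptor gene Fgfr2 (0.75) rose. Under dTAG13, 2 were called higher and 5 lower on day 2, and 5 higher and 3 lower on day 4. That is 7 and 8 of 14, beside 33.6% and 41.8% of all genes, and the list's medians were -0.1 and 0.07. The ligand gene Fgf4 was lower on both days (-0.92 and -1.18), and the receptor gene Fgfr1 was higher on both (0.53 and 0.96). The receptor gene Fgfr2 was lower on day 2 (-0.69) and higher on day 4 (1.08), a difference between the days that was called in the interaction (1.77, limma adjusted p = 0.00803). The feedback inhibitor Spry4 was lower on both days (-0.36 and -1.31), and the immediate early gene Egr1 was higher on day 4 (1.37). Both were also called in that interaction, Spry4 at -0.95 (limma adjusted p = 0.0107) and Egr1 at 1.44 (limma adjusted p = 0.0131). There 1.25% of all genes were called. In the clones 5 of the 14 were called over all stages, all lower, where 8.76% of all genes were called, including Dusp4 (-0.85) and Fgfr1 (-0.68). Among 9 genes of Nodal signalling, the ligand gene Nodal was higher under dTAG13 (0.76 and 0.81 on day 2 and day 4), as was Smad3 (0.54 and 0.73). Its feedback inhibitors Lefty1 (-2.1 and -2.85) and Lefty2 (-2.16 and -3.19) were lower, and 2 higher and 5 lower of the 9 were called on each day, beside 33.6% and 41.8% of all genes, with list medians of -0.55 and -0.45. In the clones none of the 9 was called by limma over all stages, where 8.76% of all genes were, and Lefty1 was called lower in the interaction of clone and PGCLC stage (-0.9, limma adjusted p = 0.00042).

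The 15 close relatives of the members bear on whether a family moved as a whole, and 10 of them were tested in the depletion table. Zic5, which is also among the 12 other formative genes, fell with it, from 88.3 to 94.7 in EpiLCs to 27 to 30.1 on day 2 in DMSO (-1.65). Under dTAG13 it was at 12.7 to 12.8 on day 2 and 13.3 to 13.6 on day 4 (-1.1 and -1.26). Sox4, the SOXC relative of Sox11, fell by day 2 in DMSO (-2.06) and was higher under dTAG13 on both days (1.12 and 1.2). Of the 10 relatives, 1 was called higher and 6 lower on day 2 and 1 higher and 4 lower on day 4, beside 33.6% and 41.8% of all genes, with list medians of -0.47 and -0.21. Among the 11 tested in the overexpression experiment 2 were called, Sox12 higher (0.18) and Sox1 lower (-0.67), where 8.76% of all genes were. Sox1, also a neural marker, was at 9.31 in EV and 6.11 to 9.34 in the clones as EpiLCs, at 22.4 against 4.69 to 5.39 on day 2, at 14.9 against 9.33 to 13.2 on day 4 and at 26.5 against 24.3 to 26.2 on day 6.

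For each member, the gene with the most similar course was sought among the 10932 genes whose mean reached 5 in each table, by the lower of the Pearson correlations of log2(value + 1) over the 10 and over the 12 libraries. These libraries fall into stages, so the values describe likeness and carry no test. Zic2 was most like Zic5 (0.942), Pou3f1 most like Sall2 (0.972) and Sox3 most like Dnmt3a (0.973). Fgf5 and Otx2 were both most like Hmgcs1, a gene of the mevalonate pathway (0.974 and 0.955). Foxd3 was most like Morc2a (0.959), Sox11 most like Slc40a1 (0.972) and Etv4, with the weakest likeness, most like Ncor1 (0.857). Among the members, Fgf5 and Otx2 tracked each other in both tables (0.96 and 0.98). Zic2 and Foxd3 did so in the depletion table (0.94) and less in the overexpression table (0.4). In the vector lines Zic2 was called lower (-0.7) and Foxd3 higher (0.93) from day 2 to day 4. From day 4 to day 6 Zic2 was called higher (0.86), and Foxd3 was not called (0.09). Etv4 had its highest correlation with any member at 0.36.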

How the data were processed

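RNA-seq values of 22 samples from 2 tables were used; 4 testis samples of the series were not used here. Per the submitters' processing notes, the authors used Bowtie2 2.3.4.3, SAMtools 1.9, HTSeq 0.11.2, edgeR 3.26.8 and the build mm10; the order and options are not given in the sources used here. Per the labels' protocols, NuGEN Ovation and TECAN Universal Plus kits were used for different batches, and which samples form a batch is not given in the sources used here. Each sample's deposited column holds a signal, called TMM in the authors' file names. Within a library they are whole multiples of 1 step (100.0% within a tolerance of 0.01 reads), so they were taken to be CPM with TMM-scaled library sizes, and division by the step gave back the reads. The authors' deposited tables also hold log2 fold changes, p-values and FDR values, quoted as such. limma 3.58.1 in R 4.3.3, with a variance trend, was fitted to log2(value + 1) over all genes with a mean of at least 1, with Benjamini-Hochberg adjustment within each of 12 comparisons. The depletion fits had 1 mean per group over 10 libraries; overexpression stages had line, and clones against EV had stage, as covariate. Alternatives were edgeR 4.0.16 and DESeq2 1.42.0 on recovered reads, a pseudocount of 0.1, no filter, no trend, median-ratio scaling, a replicate block, and leaving out libraries, lines or stages. The fits were tested on simulated data with 200 genes changed 2-fold. The dTAG13 interaction recovered 42% of them, with 11.6% of its calls false, and the clone interaction 46%, with 8% false. The other comparisons simulated recovered 62.5% to 84.5%, with 1.3% to 4.1% false. A member not called in an interaction may therefore still have changed by that much. The members and the 10 other lists were chosen with earlier results of these data known. Named genes are the 8 members, up to 2 called genes with the largest change in each direction per list and comparison, the gene most like each member, and Tex10 and Xist as checks; Dcx, Hes5, Foxa2 and Neurog2 were named as markers under the limit of 3 reads. Counting intervals and limits cover counting error only.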

Additional observations from a re-analysis of the deposited data

How the results depend on the processing

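Of 672 values called for single members under an alternative, 595 stayed called with the same direction and 77 lost the call; of 600 values not called, 30 changed sign, none of them called, and 17 became called. The cause was not tested in any of them, except that fewer libraries were fitted when 1 was left out.

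The number of members called from day 2 to day 4 in DMSO was 4 and went to 2 without the filter or the variance trend, to 5 with a pseudocount of 0.1, edgeR or DESeq2 (Fgf5 added), and to between 2 and 4 with a library left out. From day 4 to day 6 it went from 3 to 1 without the filter, the trend or the line term, and to between 1 and 4 with a library or line left out; the 4 called without the EV line were Zic2, Otx2, Sox3 and Etv4, with Pou3f1 and Sox11 lost. For the clones against EV it went from 2 to 0 without the filter, the trend or day 4, to 1 without day 2, and to 0 without either clone. Under dTAG13 on day 4 it was 5 and went to 3 when only the libraries compared were fitted, with 3 to 5 when a library was left out. In the dTAG13 interaction 0 became at most 1, and in the clone interaction 1 without day 2 or day 6.

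Differences near 0 changed sign. Fgf5 on day 2 under dTAG13 was 0.01 with median-ratio scaling, 0.3 with edgeR, 0.31 with DESeq2 and -0.61 to 0.55 with a library left out. Etv4 was 0.04, 0.04, 0.05 and -0.11 to 0.01. With a library left out, Otx2 on day 2 gave -0.16 to 0.2, Fgf5 on day 4 -0.01 to 0.19, Sox3 on day 4 -0.48 to 0.1, Zic2 from day 2 to day 4 in DMSO -0.12 to 0.08, and Foxd3 from day 4 to day 6 -0.11 to 0.28. In the dTAG13 interaction Fgf5 gave -0.46 to 0.7, Otx2 -0.04 to 0.32 and Pou3f1 -0.08 to 0.89. Over all stages in the clones, Fgf5 was 0.24 with edgeR, Sox3 -0.06 without day 6 and Foxd3 -0.07 without day 4. In the clone interaction Pou3f1 was -0.07 with edgeR, -0.01 with DESeq2, -0.26 without day 6 and -0.05 to 0.13 without a clone, Foxd3 was -0.17 without day 4 and -0.07 to 0.18 without a clone, and Etv4 was 0.22 without day 2; that interaction cannot be fitted without the EpiLC stage.

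No pairing by replicate number was seen over all genes tested, where the correlation of replicate differences between groups was -0.128 to 0.118. With 2 libraries per group this cannot decide whether replicates shared a culture or day, which the labels do not say. With the replicate block the members called were 7, 4, 7, 2, 4, 5 and 0 in the depletion comparisons, the 1 call lost being Etv4 from EpiLC to day 2 under dTAG13 (-0.36, adjusted p = 0.0547). The clones against EV were compared with stage as the block throughout; no further block by line could be fitted, since each line is a clone or EV.

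Counts of all genes called moved by more than 1.5 times in 9 comparisons, with the most extreme value after each: EpiLC to day 2 in DMSO 4347 (2496 without EpiLC replicate 2), day 2 to day 4 in DMSO 916 (341 without the filter) and in dTAG13 1271 (525 without day 4 dTAG13 replicate 2), dTAG13 on day 2 5577 (3603 without day 2 DMSO replicate 1), the dTAG13 interaction 208 (0 without the trend, 366 without day 4 DMSO replicate 2), day 2 to day 4 and day 4 to day 6 in the vector lines 3509 (1564) and 1049 (255) without clone 1, clones against EV 1337 (413 without clone 2), and the clone interaction 90 (0 without the trend, 262 without the filter). Shares of the EpiLC level moved by factors of 0.899 to 1.124 with 1 EpiLC library as the base. Low read numbers limit Fgf5 in the PGCLCs of both tables and Sox3 in those of the depletion table.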
